A study of Bos taurus with 20 samples.

Results

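Transcripts of 4 antigen presentation genes, TAP1, BOLA, B2M and CD74, were followed in bovine endometrium on day 18, shortly before the conceptus attaches. They comprised all clones of the 18KB array whose single symbol in the platform's gene table is one of these names. The rule found 8 of the 1536 clones, 1 for TAP1, 1 for BOLA, 4 for B2M and 2 for CD74, and 4 of the 86 genes named on this array. None of the 1536 clones of the companion 18KO array is listed under these symbols, so every value below comes from the 18KB array. That array is spotted with PCR products of cDNA clones from a library subtracted in favour of transcripts higher in pregnancy. Endometrium was cut from between the caruncles, the later attachment sites, in the caudal uterine horn on the ipsilateral side. All animals were Simmental heifers synchronised with the prostaglandin analogue cloprostenol. The 4 pregnant heifers, aged 17 to 20 months, had been inseminated with frozen-thawed sperm and carried an intact conceptus, which was taken out before sampling. The 6 controls, aged 18 to 22 months, received the sperm-free supernatant of semen from that same bull and were on day 18 of the cycle without a conceptus. Each animal gave 1 RNA, labelled with phosphorus-33 and hybridised once to this array.

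Cells present peptides from their interior on major histocompatibility complex (MHC) class I molecules. TAP1 is a subunit of the transporter that moves peptides from the cytosol into the endoplasmic reticulum. There they are loaded onto a class I heavy chain, in cattle the product of a BOLA gene, which is held in shape by the light chain that B2M encodes. CD74, the invariant chain, belongs to the class II route of antigen-presenting cells, where it blocks the peptide groove of class II molecules and guides them to endosomes. Interferons raise the transcription of class I pathway genes in many cell types. In ruminants the trophoblast of the elongating conceptus secretes interferon tau, the pregnancy recognition signal, which acts on the endometrium.

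The values are spot intensities in arbitrary units, and the columns do not share a common level. Column medians ran from 2.50 to 3.18 in pregnant animals and from 1.39 to 1.90 in controls, and over all 1536 clones the median change on the log2 scale, pregnant minus control, was 0.44. Columns of 1 group correlated at 0.935 to 0.982 on the log2 scale. The columns of pregnant 426, pregnant 447 and control 427 stood apart in holding 0 values at or below 0.01, where the others held 9 to 16. The lowest intensity of any of the 8 clones was 1.16, well above that floor and above the 10th percentile of all values (0.32). Unless stated otherwise, a change is the mean log2 intensity of the 4 pregnant minus that of the 6 control animals, given with the standard error that limma estimated. A gene or clone counted as called when its change was at least 2-fold and its adjusted p lay below 0.01.

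TAP1 had the largest change of the 4 genes as deposited, though not after quantile normalization, where BOLA and B2M exceeded it, and no difference from another of the 4 passed its test. Its single clone had intensities of 5.83 in pregnant 447, 5.10 in pregnant 426, 3.95 in pregnant 448 and 3.34 in pregnant 316. In controls the intensity was 1.42 in 427, 1.33 in 330, 1.25 in 449, 1.24 in 404, 1.22 in 434 and 1.16 in 440. The groups were thus far apart, and the controls lay close together, with an SD of 0.10 on the log2 scale against 0.36 among pregnant animals. TAP1 rose 3.51-fold (log2 1.81 ± 0.18, limma adjusted p = 3.57e-05). In the RefSeq gene table of assembly ARS-UCD2.0 the direct neighbours of TAP1 are PSMB8 and PSMB9, which encode catalytic subunits of the immunoproteasome that cuts peptides for class I molecules, but neither has a named clone on either array.

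BOLA, the class I heavy chain gene, rose 2.92-fold (1.55 ± 0.20, limma adjusted p = 0.000153). Its single clone read 163 in pregnant 447, 142 in 448, 125 in 426 and 98.2 in 316. Control intensities were 52.2 in 434, 49.5 in 404, 48.7 in 440, 48.6 in 330, 39.8 in 427 and 31.3 in 449. Every pregnant animal was above every control, and the gap between the lowest pregnant and the highest control animal was 0.91 on the log2 scale. Class I genes of cattle form a family of similar and highly variable copies, so cDNA of several family members can bind 1 spot, and the value may not belong to a single locus.

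A further 6 clones carry several symbols each, all of them class I symbols, and were assigned to no gene. They had log2 fold changes of 1.19 to 1.46, all below that of the BOLA clone. Of the 6, 4 were called, against 20.5% of all 1536 clones called higher. As these clones can bind cDNA of the same family, they are not separate evidence. The pregnant animals differed more in these clones, with an SD of 0.40 to 1.07 on the log2 scale against 0.31 in the BOLA clone. In the clone 18KB-10-H03 the intensity was 125 in pregnant 448 and 124 in pregnant 447, but 50.7 in 316 and 27.1 in 426, against 16.6 to 55.1 in controls, so the groups overlapped (1.25 ± 0.46, limma adjusted p = 0.0489). In 18KB-13-A08 pregnant 426 had 78.4 and pregnant 447 had 230, against 45.0 to 87.6 in controls (1.19 ± 0.31, limma adjusted p = 0.0109). Pregnant 426 was the lowest pregnant animal in 4 of these 6 clones, whereas in the BOLA clone the lowest was pregnant 316. Averaged over the BOLA clone and these 6, the class I change was 1.35 ± 0.25 (limma adjusted p = 0.00161), a value computed after seeing the data.

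B2M, the class I light chain, rose 2.80-fold (1.48 ± 0.19, limma adjusted p = 0.000142). Over its 4 clones the geometric mean intensity was 79.4 in pregnant 426, 63.4 in 447, 58.8 in 448 and 53.9 in 316. In controls it was 27.7 in 427, 26.8 in 404, 24.0 in 330, 21.9 in 434, 20.9 in 440 and 16.3 in 449. The groups did not overlap in the mean or in any of the 4 clones, as in 26.7% of all clones of the array. The clones gave similar sizes, from 1.38 for 18KB-08-F10 to 1.56 for 18KB-15-D04, a range smaller than the standard error of either, and all 4 were called. They differed in which pregnant animal was highest. Pregnant 426 led in 3 clones with 90.9 to 94.6, against 54.1 to 62.0 in the other pregnant animals. In 18KB-04-A09 pregnant 447 was highest with 70.9, and pregnant 426 had 49.5.

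CD74, the class II invariant chain, rose 2.42-fold (1.28 ± 0.19, limma adjusted p = 0.000451), the smallest change of the 4 as deposited. The geometric mean intensity over its 2 clones was 19.7 in pregnant 426, 17.6 in 447, 17.3 in 448 and 13.1 in 316. In controls it was 8.12 in 404, 7.90 in 440, 7.72 in 434, 6.97 in 427, 6.39 in 330 and 4.86 in 449. All pregnant animals were above all controls as deposited. The 2 clones differed in size, with 1.47 ± 0.18 for 18KB-14-H01 and 1.09 ± 0.23 for 18KB-09-B10. In the latter the lowest pregnant animal had 10.3 and the highest control 8.85. CD74 was also the gene whose call depended most on the scaling of the columns, as given with the scalings below. Pregnant 316 was the lowest pregnant animal for each of the 4 genes, and control 449 the lowest control for BOLA, B2M and CD74.

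**Figure D1:**
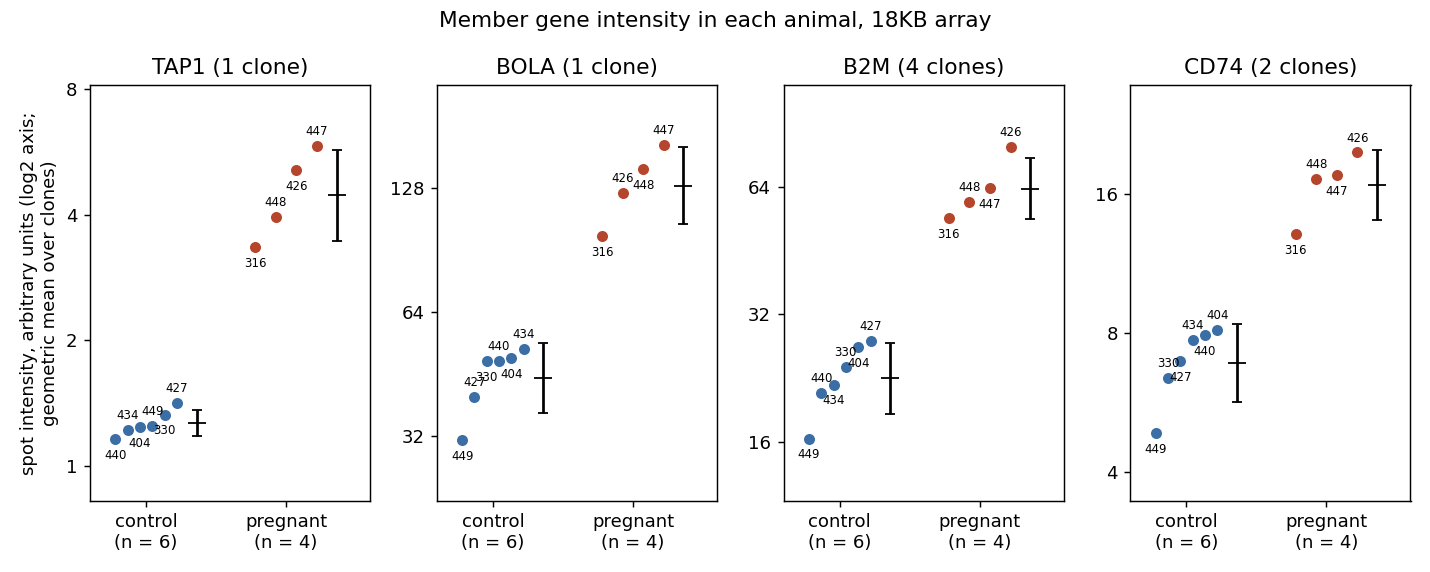
Spot intensity in arbitrary units on a log2 axis for TAP1, BOLA, B2M and CD74, 1 point for each animal with its number, and the mean ± SD of log2 values as a black bar, in 6 control and 4 pregnant heifers. All pregnant animals lie above all controls for each gene, with TAP1 at 3.34 to 5.83 against 1.16 to 1.42.

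**Figure D2:**
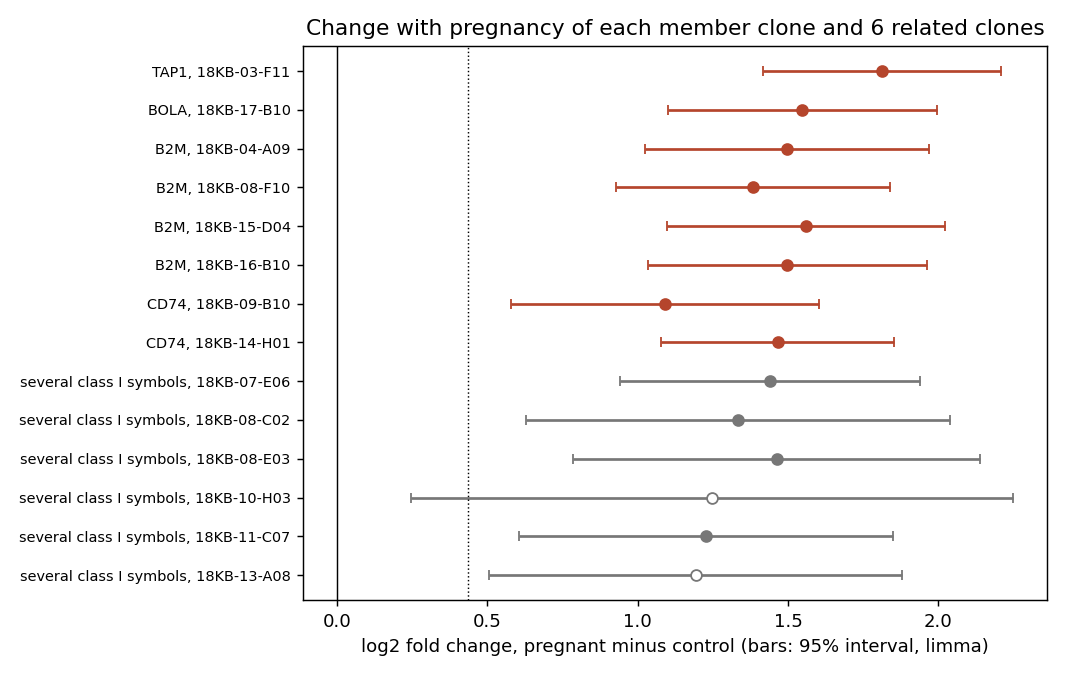
Log2 fold change, pregnant minus control, with 95% intervals from limma, for the 8 member clones (red) and the 6 clones with several class I symbols (grey); filled points were called, and the dotted line marks the median of all clones (0.44). The member clones lie between 1.09 and 1.81, and the 2 open points are the grey clones that were not called.

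All 4 genes and all 8 clones were called higher in pregnant endometrium in the values as deposited, whereas 0 genes and 0 clones were called once column medians were set equal. Of all 1536 clones, 20.5% were called higher as deposited. Of the 1420 features of the gene fit (named genes and clones without a single symbol), 15.6% were called higher, as were 77.9% of the 86 named genes and 11.2% of the clones that the gene table does not list. Named clones were sequenced chiefly because the authors had found them to differ in these animals, so a named gene that rose was the usual case on this array. The median change of the 4 genes was 1.52, under the 1.85 of all named genes and above the 0.38 of all features. By size of change TAP1 was 46th, BOLA 56th, B2M 59th and CD74 66th of the 86 named genes. The groups also did not overlap, with pregnant animals higher, in 22.3% of all features. For each of the 4 genes the two-sided exact permutation p over all 210 splits of the animals was 0.00476, the smallest this design can give. It restates that the groups did not overlap. Because named clones were chosen chiefly for differing in these same animals, it adds no support of its own.

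**Figure D3:**
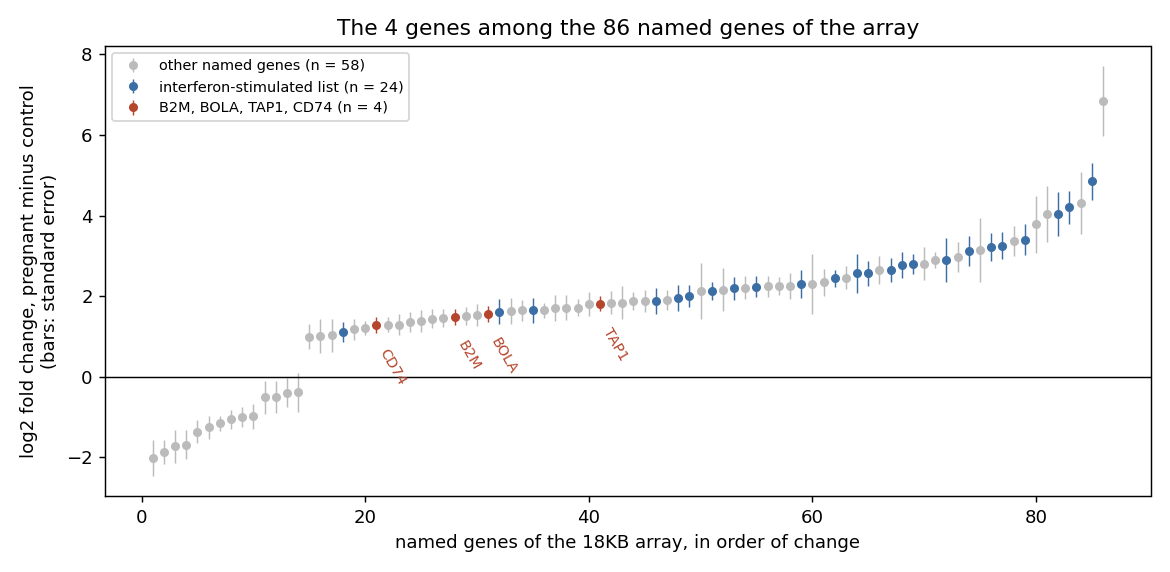
Log2 fold change with its standard error for the 86 named genes of the 18KB array in order of size, with TAP1, BOLA, B2M and CD74 in red and the 24 genes of the interferon-stimulated list in blue. The 4 genes lie in the lower part of the genes that rose, from CD74 at 1.28 to TAP1 at 1.81.

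The rank of a clone within its own column does not depend on how the column was scaled. The TAP1 clone was at percentile 56.1 to 63.1 of the 1536 clones in pregnant animals and at 42.2 to 47.1 in controls. The BOLA clone moved from 89.1 to 92.1 in controls to 94.2 to 96.2 in pregnant animals. The 4 B2M clones lay between 81.8 and 88.0 in controls and between 89.0 and 93.7 in pregnant animals. Ranges of percentiles did not overlap, with pregnant animals higher, in 7 of the 8 clones, against 13.5% of all clones. The exception was the CD74 clone 18KB-09-B10, at 73.0 to 79.4 in pregnant and 70.1 to 76.7 in control animals. The other CD74 clone was at 78.6 to 81.7 and 71.6 to 76.6. The 8 clones and all clones are not like sets, because named clones were sequenced chiefly for differing in these animals. Of the 8, 4 are clones of B2M measured in the same RNAs, so they are not independent.

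**Figure D4:**
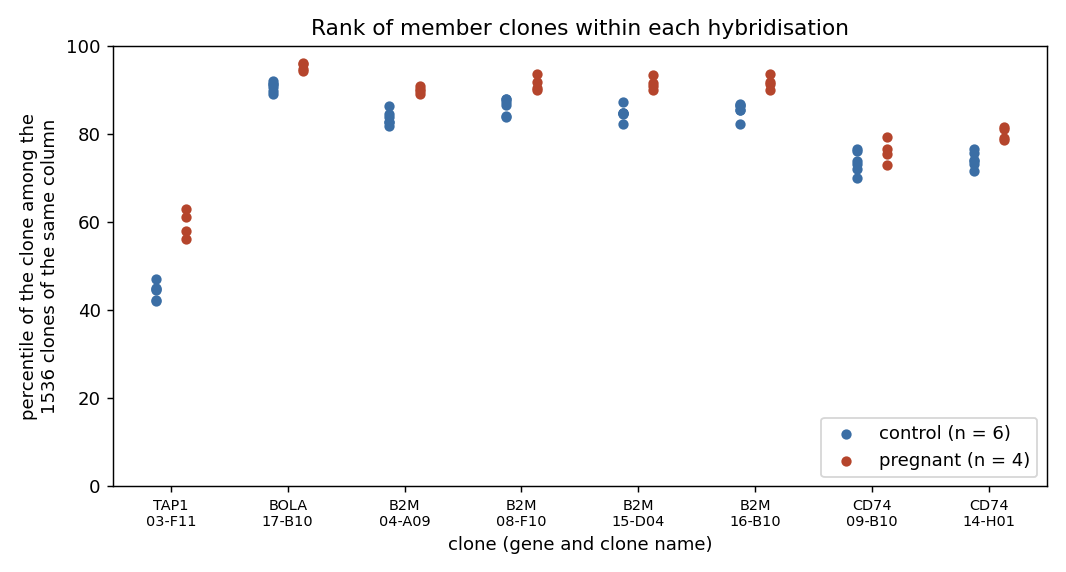
Percentile of each of the 8 member clones among the 1536 clones of the same hybridisation, 1 point for each of 6 control (blue) and 4 pregnant (red) animals. The groups are apart in 7 clones and overlap in the CD74 clone 09-B10.

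The sizes depended on the scaling, and the order of the 4 genes did so in part. With the column medians set equal, TAP1 had a log2 fold change of 0.98 ± 0.14 (limma adjusted p = 0.000302), BOLA 0.72 ± 0.18 (0.00682), B2M 0.65 ± 0.14 (0.00312) and CD74 0.45 ± 0.17 (0.0424). None of the 4 reached a 2-fold change then, so all 4 calls were lost, but TAP1, BOLA and B2M stayed under an adjusted p of 0.01 and their groups did not overlap. CD74 in pregnant 316 was inside the control range under that scaling. The scaling moved the median of all features from 0.38 to -0.45, and the called clones from 315 higher and 11 lower to 152 higher and 174 lower. It assumes equal column levels, on an array whose library was subtracted in favour of transcripts higher in pregnancy. On the 18KO array the column medians of the same animals were 1.665 to 2.36 in pregnant animals and 2.025 to 3.895 in controls. After quantile normalization (median of all features -0.32, called clones 178 higher and 139 lower) BOLA had 1.25 ± 0.18, B2M 1.10 ± 0.16 and TAP1 1.03 ± 0.15, all 3 still called, and CD74 had 0.57 ± 0.18 (limma adjusted p = 0.0197), not called. With 1 factor per animal from the medians of both arrays all 4 were called, from 1.03 ± 0.22 for CD74 to 1.56 ± 0.18 for TAP1 (median of all features 0.13). CD74 had the smallest change under each of these 4 scalings, but not with the brightest clone of each gene (1.47, against 1.38 for B2M).

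**Figure D5:**
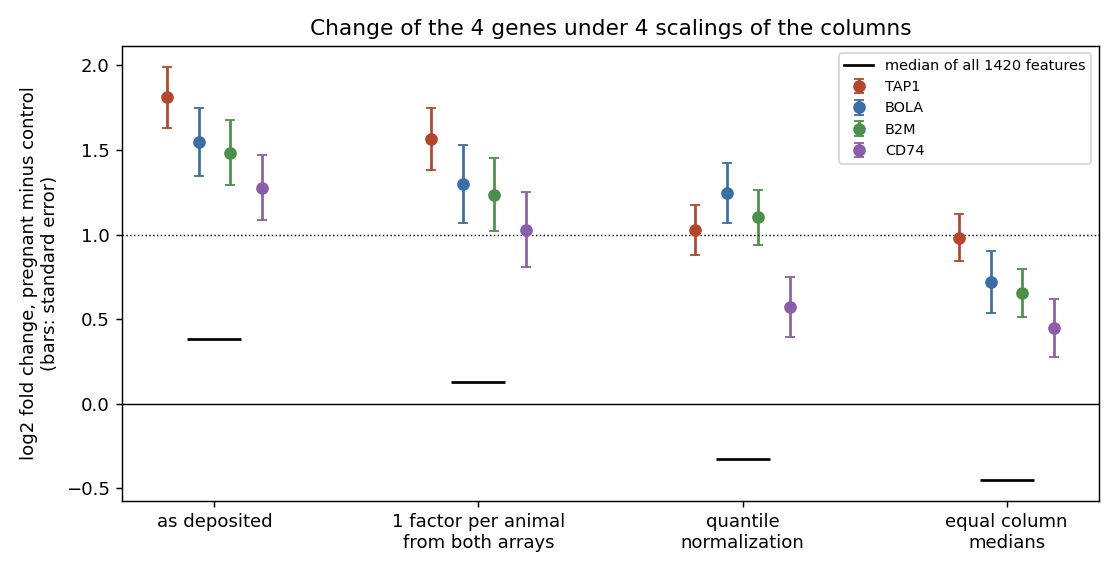
Log2 fold change with its standard error for TAP1, BOLA, B2M and CD74 under 4 scalings of the columns (n = 4 and 6), with the median of all 1420 features as a black line and a 2-fold change as a dotted line. The genes lie above the median of all features, which runs from 0.38 as deposited to -0.45 with equal medians. A factor per column moves the genes and that median alike. Their distance is therefore fixed as deposited, with equal medians and with 1 factor per animal, and only quantile normalization could change it.

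A factor common to a whole column cancels when 2 genes of the same animal are subtracted, so unequal changes among the 4 genes were tested on these differences. In the 6 pairs compared, no difference passed after adjustment in the values as deposited. TAP1 changed by 0.53 ± 0.19 more than CD74 (95% interval 0.10 to 0.96), with an exact permutation p of 0.0286 and 0.162 after adjustment over the 6 pairs. The change of TAP1 exceeded that of B2M by 0.33 ± 0.16 (interval -0.05 to 0.70, exact permutation p = 0.0810, adjusted 0.162). Without control 449 both were larger and passed, at 0.63 for TAP1 minus CD74 and 0.42 for TAP1 minus B2M (both adjusted exact permutation p = 0.0238). BOLA and B2M, the heavy and the light chain of the same molecule, differed by 0.06 ± 0.19 (interval -0.37 to 0.50, adjusted exact permutation p = 0.743). That interval allows a difference of up to 0.50 on the log2 scale in favour of BOLA, so the values do not show that the 2 chains changed alike. BOLA exceeded CD74 by 0.27 ± 0.12 (interval 0.00088 to 0.54, adjusted exact permutation p = 0.162) and B2M exceeded CD74 by 0.21 ± 0.13 (interval -0.09 to 0.50, adjusted exact permutation p = 0.229). TAP1 exceeded BOLA by 0.26 ± 0.19 (interval -0.17 to 0.70, adjusted exact permutation p = 0.246). Several of these differences depended on the processing. With a pseudocount at the 5th percentile (0.20), TAP1 exceeded BOLA by 0.12 and B2M by 0.19, and with the brightest clone of each gene it exceeded CD74 by 0.35. Quantile normalization, which rescales each intensity range separately and was added for these pairs after seeing the data, turned TAP1 minus BOLA to -0.22 and TAP1 minus B2M to -0.075. Under it BOLA exceeded CD74 by 0.67 and B2M exceeded CD74 by 0.53, and both passed (adjusted exact permutation p = 0.0286).

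Beside the named genes of a chosen list of interferon-stimulated genes, the 4 genes had changes of moderate size. The comparison depends on which genes were listed, and whether the 4 genes answered to interferon here was not tested. That list had 24 named genes, all called higher as deposited, against 77.9% of the 86 named genes. With equal column medians 21 of them were called, where 82 of the 1420 features were called higher. As deposited their log2 fold changes ran from 1.11 for the scramblase family gene PLSCR2 to 4.85 for the ubiquitin-like modifier ISG15, with a mean of 2.66. Of the 24, 21 changed more than TAP1. The change of each gene minus that of the list mean was -0.85 ± 0.25 for TAP1, -1.11 ± 0.36 for BOLA, -1.17 ± 0.25 for B2M and -1.38 ± 0.32 for CD74. These are given as descriptions, without their permutation p. Both sets of genes were named mostly for being higher in these same pregnant animals. A list mean over genes named in this way is raised by the naming. The list mean was higher in control 427 (1.02 on the log2 scale) than in the other controls (-0.52 to -0.18). That column is the control column with 0 values at or below 0.01. The pregnant columns of that kind, 426 and 447, also had the higher list means of their group. They had 2.77 and 2.97, against 2.23 in pregnant 316 and 2.21 in pregnant 448. Whether the list mean follows this column difference was not tested. Control 427 was also the highest control for TAP1 and B2M, but the second lowest for BOLA and the third lowest for CD74.

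The named genes most like each of the 4 were sought by the root mean square (RMS) difference of centred log2 values over the 10 animals, in which 0 is an identical pattern. Values were centred over both groups together, so the difference between pregnant and control animals is part of this distance. Genes with a change of similar size therefore come out near each other. Apart from the 4 genes themselves, the nearest to TAP1 was SERPING1, the inhibitor of the first complement protease complex, at 0.14, followed by PSMF1, an inhibitor of the proteasome, and C1R, a complement protease, both at 0.24, against a median of 0.58 over the 85 other named genes. SERPING1 was also nearest to BOLA (0.21), ahead of PNN, a protein of desmosomes and the nucleus (0.24), and C1R (0.26). The nearest to B2M were SCP2, a lipid carrier of peroxisomes (0.17), PNN (0.20) and SERPING1 (0.23). PNN was nearest to CD74 (0.14), before SCP2 (0.22) and SERPING1 (0.27). Among the 4 genes themselves the distances ran from 0.20 between B2M and CD74 to 0.37 between TAP1 and CD74. B2M and CD74 were thus each among the 3 nearest genes of the other, whereas 15 named genes were closer to TAP1 than CD74 was. For comparison, clones of B2M differed from each other by 0.10 to 0.34 and the 2 clones of CD74 by 0.31, so most of these distances are within the spread between clones of 1 gene.

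The rest of the pathway could hardly be seen on these arrays. Of 26 listed genes of class I presentation 3 were named, all of them described above (BOLA, B2M and TAP1), and of 23 class II genes CD74 alone was named. Partners such as TAP2, the peptide-loading chaperone TAPBP, the class I regulator NLRC5 and the class II regulator CIITA have no named clone here, nor has a class II chain. Of the listed interferon signalling genes IRF9, a subunit of the ISGF3 factor activated by type I interferons, was the single named one. IRF9 is also on the interferon-stimulated list and was counted there. It rose by 1.64 ± 0.31 (limma adjusted p = 0.00189), and by 0.81, no longer called, once column medians were equal.

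The samples were pieces of tissue, in which more cells of a type and more RNA per cell cannot be told apart. Of 32 markers of leukocytes, T and NK cells, B and plasma cells, macrophages and dendritic cells, 0 had a named clone on either array. The part of immune cells, which carry much CD74 and class I, in these changes was therefore not tested. Of 10 stroma markers 3 were named on this array, COL1A1 (-2.02 ± 0.45), COL1A2 (-1.73 ± 0.41) and COL3A1 (-1.69 ± 0.35), all called lower, and their summed intensity was 107 to 436 in pregnant and 622 to 1415 in control animals. On the 18KO array 6 were named, of which COL1A1, COL3A1 and COL6A3 were called lower and NR2F2, a transcription factor of stromal cells, was called higher (1.52 ± 0.33, limma adjusted p = 0.00961). There COL1A2 (-1.73 ± 0.46, limma adjusted p = 0.0251) and FBLN1 (-1.06 ± 0.38, limma adjusted p = 0.0821) were not called. Both named smooth muscle markers of that array, of 6 listed, were called lower, the actin ACTA2 (-1.41 ± 0.28) and the kinase MYLK (-1.58 ± 0.34). No stroma marker of the 18KB array was at 0, and the part of these markers in the results was not tested. Of 12 trophoblast markers 3 were named, with none at 0 and a summed intensity of 1.44 to 41.7 in pregnant animals and 0.96 to 1.79 in controls. TKDP1 (3.14 ± 0.78) and IFNT2 (2.16 ± 0.52) were called higher as deposited but not with equal column medians (2.31 and 1.33, limma adjusted p = 0.0244 and 0.0419), and TKDP4 was not called (2.31 ± 0.74, limma adjusted p = 0.0326). In pregnant 316 each of the 3 was within the control range, with TKDP1 at 0.34 against 0.19 to 0.40. That animal was the lowest pregnant animal for TAP1, BOLA, B2M and CD74 and above every control for each as deposited. The part of trophoblast RNA in the changes was not tested. Epithelial markers were represented by CLDN4 on the 18KO array, 1 of 8, which was not called (1.96 ± 0.58, limma adjusted p = 0.0384).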

How the data were processed

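Spot intensities were deposited on a linear scale, and the sources used here do not state how the authors removed background and scaled them. Values under 0.01 were set to 0.01 before log2. Gene names came from the platform's table, whose annotation may be outdated: 202 clones had 1 symbol, 9 several, and 1325 were not listed. Of the 4 gene identifiers 3 were found in the RefSeq table, and the file's symbol BOLA was kept for the other. Mean log2 values per gene were fitted together with all clones without a single symbol (1420 features) by limma 3.58.1 (lmFit, eBayes) under R 4.3.3, and p-values were adjusted by Benjamini-Hochberg over all features. Clones were fitted on all 1536. The fit was tested on simulated data. Differences between genes were tested by two-sided exact permutation over 210 splits. Intervals between genes use the pooled variance of the 2 groups.

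The genes, lists, tests and thresholds were chosen with earlier results of these data known. The threshold follows the series design text. Genes were named by rule: the 4 genes, listed pathway and marker genes, and for each of the 4 the 3 nearest named genes; LGMN was named after its value was seen. Animals are the replicates. The alternatives were other scalings, a floor, a pseudocount, a filter, priors, weights, age as a covariate, a block, other summaries of clones and leaving out each animal. Sequences were not used here. The tables held 0 columns beyond those of the listed samples. The plots were made in Python 3.11.15 (matplotlib 3.10.9).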

Additional observations from a re-analysis of the deposited data

Results flagged for a closer look

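In 2 of the 4 B2M clones pregnant 426 stood apart from the other 3 pregnant animals. In clone 18KB-16-B10 it had 93.5 against 58.3 to 61.2, a gap of 0.897 of the group's range on the log2 scale. In 18KB-15-D04 it had 90.9 against 56.1 to 60.9, a gap of 0.831 on the log2 scale. The critical value for 4 animals is 0.829, and chance passes it in about 1 of 20 groups; 24 groups were examined. Both clones measure the same gene in the same RNA, so these are not independent.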

How the results depend on the processing

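Of 249 recomputed values with a test 225 kept their direction and their side of the threshold. Not all of them were free to change. TAP1 and BOLA have 1 clone each and no low values, so a floor, the filter or another clone summary left their changes as they were. For a difference between 2 genes that did not pass as deposited, keeping its side means that it still did not pass. The count is therefore not a measure of robustness. The 249 include the differences from the mean of the interferon-stimulated list, whose permutation p is not used here as support. Of 46 recomputed counts of called genes or clones 37 were equal to those as deposited and 9 were lower. With equal column medians 0 member genes and 0 member clones were called, and the log2 fold changes were 0.98 for TAP1, 0.72 for BOLA, 0.65 for B2M and 0.45 for CD74. CD74 was also not called after quantile normalization (0.57), under which 3 genes and 6 clones were called, TAP1 minus BOLA was -0.22, TAP1 minus B2M -0.075, BOLA minus CD74 0.67 and B2M minus CD74 0.53, the latter 2 passing. With 1 factor per animal, or with the 3 columns without low values as a block, 7 clones were called. Of all 1536 clones, 238 and 278 were called higher under these 2 settings. Leaving out any 1 animal kept all 4 genes called, and 7 to 8 clones (7 without pregnant 426, pregnant 447 or control 449). In these fits 253 to 336 of all 1536 clones and 169 to 243 of the 1420 features were called higher. The differences from the mean of the interferon-stimulated list are given as descriptions. With a pseudocount at the 5th percentile they were -0.64 for TAP1 and -0.76 for BOLA. Leaving out animals gave -1.04 to -0.77 for TAP1 and -1.37 to -1.01 for BOLA. The difference BOLA minus B2M turned to -0.0073 with the median over clones and ran from -0.044 to 0.19 without single animals. B2M minus CD74 turned to -0.082 with the brightest clone of each gene. Without single animals TAP1 minus B2M ran from 0.20 to 0.42 and TAP1 minus CD74 from 0.43 to 0.63, passing without control 449. Other than for the scalings and the clone summaries, which change the values by construction, the cause was not tested. No paired analysis was possible because pregnant and control animals share no number and the 4 genes have clones on 1 array. The number of animals limits the precision; all 8 clones were brighter than the 10th percentile of the array (0.32) in every animal.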

Other observations

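LGMN, a lysosomal protease that takes part in processing proteins for class II molecules, was on none of the lists and was named after its value was seen. Its single clone rose by 1.38 ± 0.27 on the log2 scale (limma adjusted p = 0.00229). Pregnant animals lay above controls without overlap (3.60 to 7.24 against 1.20 to 2.92), as in 22.3% of all features. LGMN was called higher, as were 77.9% of the 86 named genes, and was 62nd of them by size of change. Such a rise was the usual case for a named gene. With equal column medians LGMN had 0.55 and an adjusted p of 0.0986 by limma.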
